A study of Mus musculus with 16 samples.

Results

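The genes described here are 7 small heat shock protein genes and Bag3, which encodes their co-chaperone: Hspb7, Cryab, Hspb6, Hspb1, Hspb2, Hspb3, Hspb8 and Bag3. They were taken by symbol from the deposited count tables, where each symbol stands on exactly 1 of the 55487 gene rows, so 8 genes of 55487 are described. All 16 libraries were used, and all 8 genes passed the filter on low counts. Each library holds total RNA from the mid piece of a left ventricle, cut into base, mid and apex, of a C57Bl/6J mouse aged 24 months. In the multiparous group, 8 mice had been pregnant more than 3 times, and in the virgin group 8 mice had never been pregnant; the sources used here give no treatment and no number of pregnancies per mouse. The multiparous library names carry the code MP in 4 cases and P in 4 cases, whose meaning is not stated, and all 8 virgin names carry AA. Past pregnancy and any difference tied to these codes therefore cannot be told apart.

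Small heat shock proteins share a conserved alpha-crystallin domain and bind unfolding proteins without using ATP, holding them until other chaperones refold them or they are degraded. Heart and skeletal muscle are rich in them, and several sit at the Z-disc, where contraction strains filamin, titin and desmin. BAG3 links HSPB8 to the HSP70 machinery and the ubiquitin ligase CHIP, and this complex sends damaged filamin to autophagy, a route called chaperone-assisted selective autophagy. Inherited variants of CRYAB, BAG3 and HSPB8 are known causes of human muscle disease, and those of CRYAB and BAG3 of cardiomyopathy.

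Gene counts per library were 34560606 to 58890976 in 15 libraries and 228325238 in virgin 8. At this depth every member was counted well: the lowest raw count of any member in any library was 124, for Hspb3, and Hspb7 had 57406 to 443035 counts. Virgin 1 stood apart in composition. It had the smallest sum of 8 cardiomyocyte markers of all 16 libraries (44775 CPM, read counts scaled to library size with TMM factors), and the largest virgin sum of macrophage markers (254 CPM, next 180.4 CPM). Markers of kidney tubule summed to 10.0 to 33.8 CPM in multiparous and 19.9 to 111 CPM in virgin libraries, and all 8 had lower means in multiparous hearts (exact two-sided permutation of the log2 sum, p = 0.00186, adjusted p = 0.0149 over 8 marker sums). By edgeR 7 of them had an unadjusted p under 0.05 and 0 passed (lowest adjusted p 0.0745). The marker lists were chosen with earlier results of these data known, so the permutation p is only a description. Skeletal muscle markers summed to 1.03 to 2.17 CPM in multiparous and 1.08 to 2.14 CPM in virgin libraries, so fast skeletal fibre genes were close to 0 in both groups. The samples were tissue pieces, in which fewer cells of a type and less RNA per cell cannot be told apart.

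The members spanned a wide range of abundance in these hearts. Per kilobase of exon, Hspb7 was highest at 621 ± 53.4 CPM in the multiparous group and 706 ± 39.2 CPM in the virgin group (these and the following errors are SDs of 8 libraries). Cryab followed at 557 ± 59.9 CPM per kilobase in multiparous and 579.9 ± 68.5 in virgin hearts. Hspb6 (206 ± 25.6 in multiparous, 212 ± 29.2 in virgin) and Hspb8 (195 ± 11.2 in multiparous, 218 ± 20.5 in virgin) came next and lay within each other's spread. Bag3 (117 ± 10.0 in multiparous, 121 ± 10.1 in virgin) and Hspb1 (106 ± 11.4 in multiparous, 119 ± 18.4 in virgin) followed with overlapping spreads, all per kilobase. Hspb2 stood at 25.4 ± 1.23 in multiparous and 25.1 ± 1.74 in virgin hearts, and Hspb3 was lowest at 4.21 ± 0.487 in multiparous and 4.78 ± 0.669 in virgin hearts, per kilobase. Cryab was thus 126.5 times as abundant per kilobase as Hspb3 over the 16 libraries. Of the rest of the family, Hspb11, a distant relative in cilia, measured 1.66 ± 0.246 CPM in multiparous hearts, against 1.48 ± 0.21 CPM in virgin hearts. The lens gene Cryaa and the testis genes Odf1 and Hspb9 were at or near 0, with 3, 2 and 25 reads over all 16 libraries, and were not tested.

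**Figure D1:**
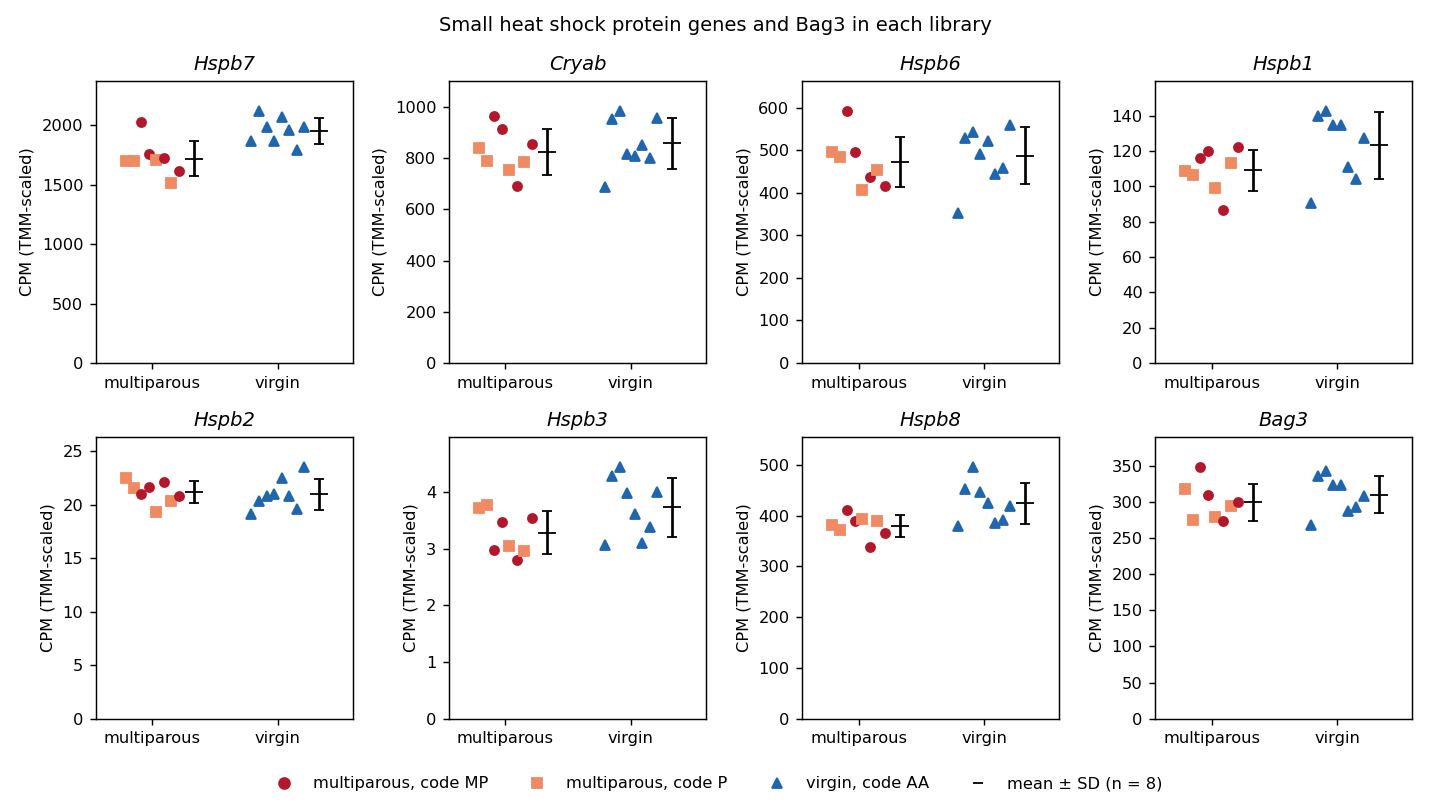
Level of each gene in each library, as TMM-scaled CPM on a linear axis from 0; each point is 1 library, with the multiparous hearts left (circles, code MP; squares, code P) and the virgin hearts right (triangles), and bars give mean ± SD of 8. The groups overlap for all 8 genes, and 7 of 8 multiparous hearts lie below the lowest virgin heart for Hspb7.

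No member passed the test between multiparous and virgin hearts. With edgeR, 0 of the 8 genes had an adjusted p under 0.05, in a comparison where 2 of 17813 genes (0.0112%) did; DESeq2 and limma voom also called 0 of 8. At an unadjusted p under 0.05 stood Hspb7 and Hspb8 by edgeR and by DESeq2, and these with Hspb3 by limma voom, while 8.12% of all genes tested reached that level by edgeR. The fitted mean was lower in multiparous hearts for 7 members and higher for 1, where 51.4% of all genes were lower. The median log2 fold change, multiparous minus virgin, was −0.11 over the members and −0.0030 over all genes. The groups did not overlap for 0 members and for 0.0337% of all genes.

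Hspb7 (ENSMUSG00000006221.7, chromosome 4 at 141420779 to 141425311, plus strand, GRCm38), the cardiovascular small heat shock protein, binds filamin C and limits thin filament length in heart muscle. It measured 1511, 1705 and 2030.0 CPM as lowest, median and highest of the 8 multiparous hearts, against 1791, 1971 and 2119 CPM in virgin hearts. Only multiparous 3, the highest, lay above the lowest virgin heart. Multiparous hearts averaged 1719 ± 148 CPM and virgin hearts 1956 ± 109 CPM (SD, n = 8 each). The log2 fold change was −0.19 (SE 0.05, 95% interval −0.30 to −0.07, edgeR adjusted p = 0.273), which is 0.879-fold (0.812 to 0.952). Ordered by p, Hspb7 was number 212 of 17813 genes. Without multiparous 3 the log2 fold change was −0.22 (edgeR adjusted p = 0.0783), the strongest value with any 1 library left out. The weakest such value was −0.16.

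By library code, Hspb7 measured 2030.0, 1757, 1729 and 1615 CPM in the 4 MP-coded hearts and 1704, 1704, 1705 and 1511 CPM in the 4 P-coded hearts. Of the MP-coded hearts 1 lay within the virgin range and 3 below it, and all 4 P-coded hearts lay below it. Against the virgin hearts the log2 fold change was −0.13 for MP-coded (SE 0.07, edgeR adjusted p = 0.658) and −0.24 for P-coded hearts (SE 0.06, edgeR adjusted p = 0.128). For all members together, MP-coded hearts had the lower fitted mean for 6 of 8 (51.0% of all genes) and P-coded hearts for 8 of 8 (53.0% of all genes). In these comparisons edgeR called 0 members; over all genes it called 0 of 18442 genes with MP-coded hearts, where 8.65% had an unadjusted p under 0.05, and 97 of 18612 genes (0.521%) with P-coded hearts, where 8.29% did. At that unadjusted level stood 0 members with MP-coded hearts and Hspb7 and Hspb8 with P-coded hearts. MP-coded minus P-coded, tested directly, gave 0.11 (SE 0.08, 95% interval −0.07 to 0.29, edgeR adjusted p = 0.666). That value was 0.040 without multiparous 3 and 0.064 without multiparous 7, and at most 0.15 with any 1 library left out.

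The 8 cardiomyocyte markers all had slightly lower means in multiparous hearts as well, with a median log2 fold change of −0.05. Their sum was 46781 to 54508 CPM in multiparous and 44775 to 59319.8 CPM in virgin libraries (exact two-sided permutation p = 0.373, adjusted p = 0.597 over 8 marker sums). Divided by that sum, Hspb7 differed by −0.14 on the log2 scale, multiparous minus virgin, with SDs of 0.10 in multiparous and 0.11 in virgin hearts. This ratio was not tested. Fibroblast markers had higher means in 5 of 6 cases, none passing, and summed to 598 to 812 CPM in multiparous and 556 to 692 CPM in virgin libraries (exact permutation p = 0.0793, adjusted p = 0.211). The median log2 fold change over the markers of smooth muscle and pericytes was −0.28, with 4 of 6 lower and 0 passing, with 2 at an unadjusted p under 0.05 by edgeR. The lower ones were Tagln (−0.36), Cnn1 (−0.53), Acta2 (−0.30) and Myh11 (−0.26). The others had higher means, Rgs5 (0.04) and Pdgfrb (0.09). The sum of all 6 markers, mostly Rgs5, was 891 to 1067 CPM in multiparous and 774 to 1111 CPM in virgin libraries (exact permutation p = 0.974, adjusted p = 0.974). The part of cell composition and of the kidney transcripts in the difference of Hspb7 was not tested. When the 4 virgin libraries richest in kidney transcripts were left out, the log2 fold change of Hspb7 was −0.21 (edgeR adjusted p = 0.574).

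Hspb8 (ENSMUSG00000041548.4, chromosome 5 at 116408491 to 116422864, minus strand), the partner of BAG3, measured 339, 385 and 412 CPM as lowest, median and highest in multiparous hearts, against 379, 421 and 496 CPM in virgin hearts. All 8 multiparous hearts lay below the virgin mean and 3 below the lowest virgin heart. The mean was 380.2 ± 21.8 CPM in multiparous hearts, against 424 ± 40.0 CPM in virgin hearts. The log2 fold change was −0.16 (SE 0.05, 95% interval −0.27 to −0.04, edgeR adjusted p = 0.395). The MP-coded hearts measured 412, 390.0, 339 and 366 CPM, and the P-coded hearts 381, 371, 394 and 389 CPM, so both codes lay in the same range. Against virgin hearts they gave −0.17 (MP-coded, edgeR adjusted p = 0.584) and −0.15 (P-coded, edgeR adjusted p = 0.597). Divided by the cardiomyocyte sum, Hspb8 differed by −0.11 on the log2 scale, multiparous minus virgin, with SDs of 0.074 in multiparous and 0.15 in virgin hearts. Without the 4 kidney-rich virgin libraries its log2 fold change was −0.15 (edgeR adjusted p = 0.574).

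Bag3 (ENSMUSG00000030847.8, chromosome 7 at 128523616 to 128546981, plus strand), the co-chaperone, measured 273, 298 and 349 CPM as lowest, median and highest in multiparous hearts, against 268, 316 and 344 CPM in virgin hearts. The groups covered nearly the same range, with a log2 fold change of −0.05 (SE 0.06, 95% interval −0.17 to 0.07, edgeR adjusted p = 0.883). Per kilobase of exon, the ratio of Hspb8 to Bag3 was 1.67 ± 0.104 in multiparous hearts (1.55 to 1.85), against 1.79 ± 0.0574 in virgin hearts (1.72 to 1.90); the ranges overlap.

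Hspb1 (ENSMUSG00000004951.10, chromosome 5 at 135887919 to 135889563, plus strand), known as HSP25 in mice, is a stress-inducible chaperone that protects actin filaments. It measured 86.7, 111 and 122 CPM as lowest, median and highest in multiparous hearts, against 90.4, 131 and 142 CPM in virgin hearts. Of the virgin hearts, 5 lay above every multiparous heart, and virgin 1 lay below 7 multiparous hearts. Multiparous minus virgin was −0.18 on the log2 scale (SE 0.09, 95% interval −0.36 to 0.01, edgeR adjusted p = 0.651), and −0.23 without virgin 1 (edgeR adjusted p = 0.224). With any 1 library left out, the value for Hspb1 ranged from −0.23 to −0.13. Hspb3 (ENSMUSG00000051456.4, chromosome 13 at 113662896 to 113663676, minus strand) is a small muscle protein that pairs with HSPB2. It measured 2.80, 3.26 and 3.77 CPM in multiparous hearts, against 3.07, 3.80 and 4.45 CPM in virgin hearts. Its 4 lowest values of all were multiparous, and its 4 highest were virgin. The log2 fold change was −0.19 (SE 0.10, 95% interval −0.39 to 0.02, edgeR adjusted p = 0.661).

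Cryab (ENSMUSG00000032060.10, chromosome 9 at 50751325 to 50756636, plus strand) encodes alpha-B crystallin, the chaperone of desmin and titin. It measured 692, 815 and 966 CPM as lowest, median and highest in multiparous hearts, against 687, 833 and 984 CPM in virgin hearts. The ranges were almost identical, and the log2 fold change was −0.06 (SE 0.08, 95% interval −0.22 to 0.10, edgeR adjusted p = 0.903). It was 0.0020 for the MP-coded hearts alone. Hspb6 (ENSMUSG00000036854.14, chromosome 7 at 30552178 to 30555443, plus strand), also called HSP20 and a target of cAMP-dependent kinase in heart muscle, measured 406, 469 and 591 CPM in multiparous hearts, against 353, 506 and 558 CPM in virgin hearts. The log2 fold change was −0.04 (SE 0.09, 95% interval −0.23 to 0.14, edgeR adjusted p = 0.945).

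Hspb2 (ENSMUSG00000038086.4, chromosome 9 at 50751078 to 50752354, minus strand), which binds the myotonic dystrophy kinase DMPK, is the neighbour of Cryab on the opposite strand. It measured 19.3, 21.3 and 22.5 CPM in multiparous hearts, against 19.1, 20.8 and 23.5 CPM in virgin hearts. The log2 fold change of 0.01 had the narrowest interval of the 8 members (SE 0.05, −0.09 to 0.11, edgeR adjusted p = 0.977), and its sign was negative in P-coded hearts alone (−0.0083). Of the 834 exonic bases of Hspb2, 252 lie opposite exons of Cryab, and whether the counting used strand is not given in the sources used here, so counts of both are uncertain there. For Hspb6, 122 of 2299 exonic bases lie opposite Proser3. Per kilobase, the ratio of Hspb2 to Cryab was 0.0460 ± 0.00537 in multiparous and 0.0437 ± 0.00445 in virgin hearts, with overlapping ranges.

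**Figure D2:**
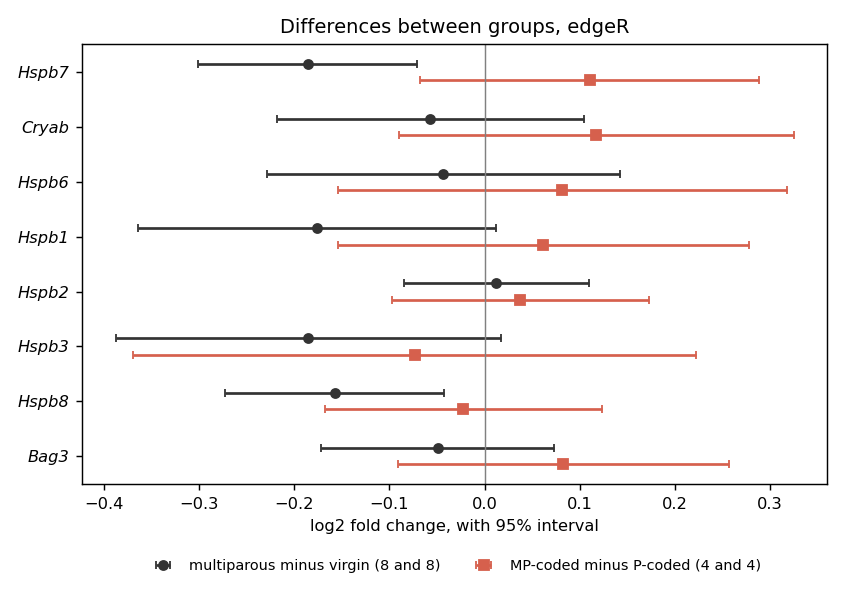
Log2 fold change of each gene with its 95% interval (edgeR, unadjusted interval): circles give multiparous minus virgin (8 and 8 libraries) and squares MP-coded minus P-coded (4 and 4). The intervals of Hspb7 and Hspb8 exclude 0 in the first comparison, before adjustment, and every interval of the second comparison includes 0.

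Between the codes, MP-coded hearts had the higher fitted mean for 6 members, as for 50.6% of all genes, and the lower for 2 (Hspb3 and Hspb8). edgeR called 0 of the 8, and 0 had an unadjusted p under 0.05 with edgeR, DESeq2 or limma voom, where edgeR called 22 of 18123 genes (0.121%) and 11.0% of genes had an unadjusted p under 0.05. The log2 fold changes, MP-coded minus P-coded, ranged from −0.07 for Hspb3 (95% interval −0.37 to 0.22) to 0.12 for Cryab (95% interval −0.09 to 0.32). Their edgeR adjusted p ranged from 0.666 to 0.938. Single libraries weighed heavily here: with 1 left out, Cryab ranged from 0.053 to 0.20, Hspb1 from 0.011 to 0.16, Bag3 from 0.015 to 0.13, Hspb2 from 0.0022 to 0.071 and Hspb3 from −0.14 to −0.016.

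The promoter windows of several members hold paired GAA units of the kind that heat shock factors recognise. Windows of 250 bases before to 50 bases after a RefSeq transcription start (GRCm38.p6) were at hand for 6 members, 7 windows in all since Hspb6 has 2; Hspb2 and Cryab had no entry. The motif searched was GAANNTTC, which reads the same on both strands. It was found in 5 of these 6 genes, all but Hspb7, and in 7.86% of all 32851 windows. For Hspb6 it stood only in the window at chr7:30553051-30553350, not in that at chr7:30552290-30552589. The shared form GAAGTTTC stood in 4 genes. The stretches of these 4 are shown because the same 8 letters recur in them, and that of Hspb3, which holds GAATTTTC, follows. Capitals mark the motif at the stated position. A later match at the end of the Hspb1 stretch is left in lower case.
Hspb1, 117 bases before the start, plus strand, chr5:135887782-135887829: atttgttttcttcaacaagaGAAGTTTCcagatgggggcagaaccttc
Hspb6, 120 bases before the start, plus strand, chr7:30553161-30553208: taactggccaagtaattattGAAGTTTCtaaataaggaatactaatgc
Hspb8, from base 3 of the transcript, minus strand, chr5:116422835-116422882: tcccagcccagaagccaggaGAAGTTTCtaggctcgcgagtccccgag
Bag3, from base 43 of the transcript, plus strand, chr7:128523605-128523632: aagttctctggatgggaccaGAAGTTTC
Hspb3, 224 bases before the start, minus strand, chr13:113663873-113663920: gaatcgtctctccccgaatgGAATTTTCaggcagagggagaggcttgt

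In Hspb1 a further match, GAACCTTC, began 97 bases before the start. The longer heat shock element of 3 such units, searched on both strands, stood in 0 of the 7 member windows and in 0.603% of all windows. Every such element holds GAANNTTC and the opposite pairing, so these searches overlap. The opposite pairing, TTCNNGAA, was in 0 member windows and 8.52% of all. Hspb7, with no match to any of these, is shown for comparison with its whole window, plus strand, chr4:141420529-141420828.
Hspb7: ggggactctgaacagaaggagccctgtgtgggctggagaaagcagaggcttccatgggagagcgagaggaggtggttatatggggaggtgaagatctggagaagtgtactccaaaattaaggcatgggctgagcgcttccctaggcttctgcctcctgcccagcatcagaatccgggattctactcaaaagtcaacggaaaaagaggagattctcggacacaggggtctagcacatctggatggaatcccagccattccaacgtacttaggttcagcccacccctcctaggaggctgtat
Among the chaperone genes driven by heat shock factors, 8 of the 15 with a window held GAANNTTC. Among the partners of chaperone-assisted selective autophagy 3 of 12 did, among the heat shock factor genes 0 of 2, among the other Bag genes 0 of 4, among the other small heat shock protein genes 0 of 3, among the cytoskeletal clients 0 of 8, and among all genes 9.04%. The longer element of 3 units was in 0 of the 6 members with a window, 4 of those 15 chaperone genes and 1 of those 12 autophagy partners. It was in 0 genes of the other lists, and in 179 of all 27025 genes. A match is a description of these letters and does not show binding.

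Members varied together from heart to heart. Over the 16 libraries, Pearson's r of log2 CPM was positive in 27 of 28 pairs (median 0.59), and 17 pairs passed by r and 12 by Spearman's rho (permutation, adjusted p under 0.05 over 28 pairs). Pairs of all genes were not counted in this way, so these counts do not set the members apart from other genes. Hspb1 and Bag3 had r = 0.82 (rho = 0.83; permutation p = 9e-05 for r and 0.00011 for rho, adjusted 0.000933 and 0.00196), and r = 0.74 without the 2 hearts farthest from the median of Hspb1. Hspb1 and Hspb8 had r = 0.82 (rho = 0.74; permutation p = 0.0001 for r and 0.00153 for rho, adjusted 0.000933 and 0.00612), and 0.79 without the 2 farthest hearts. Hspb8 and Bag3, partners in 1 complex, had r = 0.77 (rho = 0.75; permutation p = 0.00047 for r and 0.00129 for rho, adjusted 0.00164 and 0.00602), and 0.68 without the 2 farthest hearts. Cryab and Bag3 had r = 0.82 (rho = 0.80; permutation p = 0.00014 for r and 0.00032 for rho, adjusted 0.00098 and 0.00299), and 0.73 without the 2 farthest hearts.

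Other genes reached such values too: 0.337% of all other genes tested correlated with Hspb1 at least as highly as Bag3 did, and 0.567% correlated with Bag3 at least as highly as Hspb8 did. Over the 17 pairs that passed by r, this share ran from 0.124% (with Bag3, as highly as Hspb1) to 7.09% (with Bag3, as highly as Hspb7). For Hspb3 and Bag3 it was 5.20% with Hspb3 and 6.34% with Bag3, and for Hspb6 and Hspb8 6.09% with Hspb6 and 4.58% with Hspb8. The points share their libraries, and so their mix of cells. Virgin 1, lowest of the virgin hearts for 7 of 8 members, was also lowest in cardiomyocyte markers, and without it r was 0.79 for Hspb1 and Bag3 and 0.78 for Hspb8 and Bag3. In the multiparous group, multiparous 3 was highest for 5 members and multiparous 6 lowest for 5. Multiparous 6 also had the largest macrophage sum (255 CPM) and the largest fibroblast sum (812 CPM) of all 16 libraries; the part of this in the correlations was not tested.

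Hspb2 stood outside this pattern. Its r was −0.02 with Hspb8 (rho = −0.03; permutation p = 0.927 for r and 0.925 for rho, the same once adjusted), and −0.21 without the 2 hearts farthest from the median of Hspb2. With its neighbour Cryab its r was 0.33 (rho = 0.31; permutation p = 0.213 for r and 0.243 for rho, adjusted 0.26 and 0.296), and −0.04 without the 2 farthest hearts. Only with Hspb6 did Hspb2 pass by r (r = 0.59, permutation p = 0.0157, adjusted 0.0315), and not by rho (rho = 0.52, permutation p = 0.0402, adjusted 0.0611). That r was weaker without the 2 farthest hearts (0.33) and without virgin 1 (0.45). How far it depends on single hearts was not tested.

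Within groups, r had a median of 0.39 over the 28 pairs in multiparous hearts and 0.73 in virgin hearts. By exact permutation over 40320 pairings, 0 pairs passed in multiparous hearts and 11 in virgin hearts (adjusted over 28). The difference between the groups was not tested, and pairs of all genes were not counted within groups. Hspb1 and Bag3 had r = 0.64 in multiparous hearts (exact permutation p = 0.0867, adjusted 0.304) and 0.97 in virgin hearts (exact permutation p = 0.000198, adjusted 0.00556). Hspb1 and Hspb8 had r = 0.59 in multiparous and 0.88 in virgin hearts. Hspb8 and Bag3 had r = 0.68 in multiparous hearts (exact permutation p = 0.0648, adjusted 0.259) and 0.94 in virgin hearts (exact permutation p = 0.000967, adjusted 0.00903). For Cryab and Bag3 the multiparous value was the higher, 0.89 in multiparous hearts (exact permutation p = 0.0037, adjusted 0.103) and 0.75 in virgin hearts (exact permutation p = 0.0291, adjusted 0.0628). The widest gap of the 28 pairs was that of Hspb3 and Hspb8, with r = 0.02 in multiparous and 0.94 in virgin hearts. Next came Hspb3 and Bag3, with r = 0.06 in multiparous hearts (exact permutation p = 0.899, adjusted 0.968) and 0.92 in virgin hearts (exact permutation p = 0.00134, adjusted 0.00937).

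**Figure D3:**
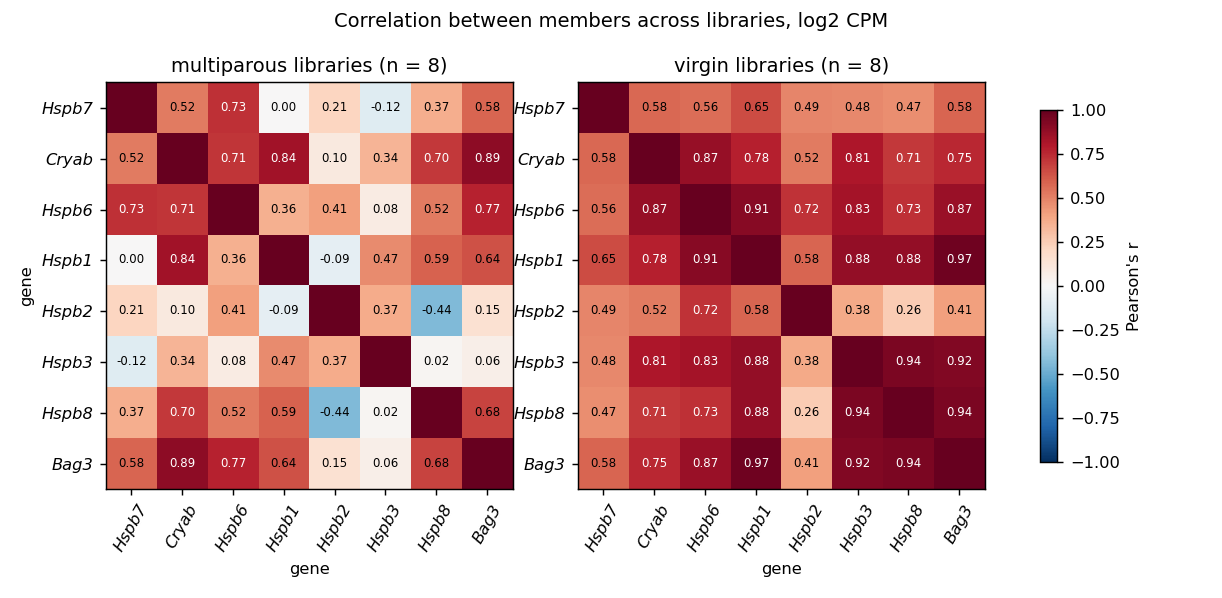
Pearson's r of log2 CPM between members across the 8 multiparous libraries (left) and the 8 virgin libraries (right), on a colour scale from −1 to 1. The multiparous values have a median of 0.39 and the virgin values a median of 0.73, and Hspb2 with Hspb8 has the lowest value of each panel (−0.44 in multiparous, 0.26 in virgin libraries).

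The genes most like each member over the 16 libraries were sought among 14166 by Pearson's r of log2 CPM. Each r below was picked as the highest of so many genes and was not tested. For Cryab the first 2 were Pgam2, the muscle phosphoglycerate mutase (r = 0.92), and Yars2, a mitochondrial tRNA synthetase (r = 0.90). For Hspb6 they were Mrpl41 of the mitochondrial ribosome and Ak1, an adenylate kinase (r = 0.91 each). For Hspb7 they were Mpc1-ps, a pseudogene of the pyruvate carrier whose reads can belong to Mpc1 (r = 0.88), and Mrps23 of the mitochondrial ribosome (r = 0.86). Hspb8 was most like Nupl2, a nuclear pore gene, and Frmd5 (r = 0.90 each). For Hspb8 and Nupl2 rho was 0.74, and r was 0.68 in multiparous and 0.95 in virgin hearts. Bag3 was most like Klc2, a kinesin light chain, and Tecr, of fatty acid elongation (r = 0.88 each). Hspb1 was most like Gatd3a and the translation factor Eif4g1 (r = 0.90 each). For Hspb2, Ptges3l (r = 0.84) and Hdhd3 (r = 0.83) came first, and for Hspb3 Spon2 and Sco2, a cytochrome oxidase assembly factor (r = 0.86 each). None of these 16 genes passed between multiparous and virgin hearts (edgeR adjusted p from 0.428 for Nupl2 to 0.994 for Ak1).

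Chaperones driven by heat shock factor lay on both sides of 0. Of 19 such genes, 7 were higher in the multiparous group and 12 lower, 0 passed, and the median log2 fold change was −0.0088. Dnajb1, an HSP40 that delivers clients to HSP70, had the smallest p and was higher, at 13.5 ± 0.985 CPM in multiparous hearts, against 11.6 ± 1.08 CPM in virgin hearts (0.22 on the log2 scale with SE 0.06; adjusted p = 0.239 by edgeR). Hsp90aa1, the inducible HSP90, lay the other way at 95.4 ± 8.24 CPM in multiparous hearts, against 112 ± 12.3 CPM in virgin hearts (−0.23 on the log2 scale with SE 0.07; adjusted p = 0.266 by edgeR), followed by Hspa4l at 84.5 ± 7.25 CPM in multiparous hearts, against 92.7 ± 9.64 CPM in virgin hearts (adjusted p = 0.634 by edgeR). Hspa1a and Hspa1b, the inducible HSP70 pair, are near-identical copies whose shared reads can be split or left uncounted. Their counts were low in both groups and may be too low. Hspa1a measured 1.34 ± 0.309 CPM in multiparous hearts, against 1.57 ± 0.385 CPM in virgin hearts, and Hspa1b 1.58 ± 0.482 CPM in multiparous hearts, against 1.56 ± 0.31 CPM in virgin hearts. Of the factors themselves, Hsf1 measured 34.5 ± 2.76 CPM in multiparous hearts, against 35.7 ± 1.98 CPM in virgin hearts, and Hsf2 18.5 ± 1.11 CPM in multiparous hearts, against 18.9 ± 0.843 CPM in virgin hearts. Hsbp1, which binds and inhibits the factor, measured 69.5 ± 3.70 CPM in multiparous hearts, against 71.2 ± 3.82 CPM in virgin hearts. All 4 genes of that list had lower means and 0 passed (lowest edgeR adjusted p 0.852).

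Of 13 genes listed as partners of chaperone-assisted selective autophagy, 5 had higher and 8 lower means, 0 passed and the median log2 fold change was −0.0091. Stx18 is a syntaxin of the endoplasmic reticulum, and the sources used here do not show that it acts in this route. The counts and the median of the list include it. It measured 8.80 ± 0.624 CPM in multiparous hearts, against 10.3 ± 0.757 CPM in virgin hearts (−0.22 on the log2 scale with SE 0.06, adjusted p = 0.18 by edgeR). Synpo2, the Z-disc adaptor that BAG3 binds, measured 269 ± 23.9 CPM in multiparous hearts, against 291 ± 33.9 CPM in virgin hearts (adjusted p = 0.741 by edgeR), and Ywhag, a 14-3-3 protein, 291 ± 11.8 CPM in multiparous hearts, against 308 ± 26.1 CPM in virgin hearts (adjusted p = 0.732 by edgeR). Among the other Bag genes 1 of 5 was higher, 4 were lower and 0 passed. Bag1 measured 90.8 ± 5.54 CPM in multiparous hearts, against 92.9 ± 3.52 CPM in virgin hearts, Bag4 11.2 ± 0.352 CPM in multiparous hearts, against 10.7 ± 0.921 CPM in virgin hearts, and Bag6 222 ± 10.9 CPM in multiparous hearts, against 227 ± 13.0 CPM in virgin hearts.

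Cytoskeletal clients had a median log2 fold change of −0.08, with 6 of 8 lower and 0 passing. Capzb, the Z-disc capping protein, measured 172 ± 10.1 CPM in multiparous hearts, against 183 ± 6.48 CPM in virgin hearts (−0.09 on the log2 scale with SE 0.04; adjusted p = 0.542 by edgeR). Actn2, the actinin of the Z-disc, measured 2195 ± 127 CPM in multiparous hearts, against 2348 ± 157 CPM in virgin hearts (adjusted p = 0.671 by edgeR), and Flnc, the filamin that BAG3 clears, 700.4 ± 57.4 CPM in multiparous hearts, against 777 ± 119 CPM in virgin hearts (adjusted p = 0.697 by edgeR).

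**Figure D4:**
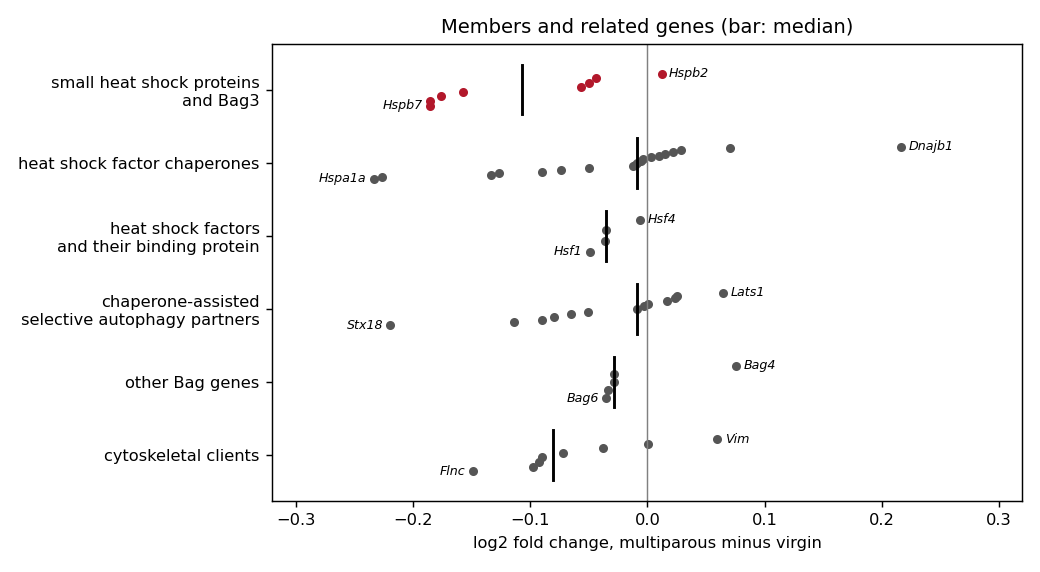
Log2 fold change, multiparous minus virgin, of each tested gene in 6 lists; points are genes, bars are list medians, and the genes at both ends are named. The members have the lowest median (−0.11), and the chaperone and autophagy lists have medians of −0.0088 and −0.0091; 0 genes of any list passed.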

How the data were processed

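RNA sequencing counts of 8 multiparous and 8 virgin left ventricles were used. Per the labels' protocols, libraries came from a stranded total RNA kit with ribosomal depletion, read as paired ends. Per the submitters' processing notes, the authors used STAR 2.7.11b and HTSeq 0.11.1 on GRCm38.p6; for annotation release and strand setting, the sources give nothing. What the authors deposited were raw counts, 1 table per library. Reads assigned to no gene (26.5% to 33.1% of a library) were left out before scaling and testing. Positions and exon lengths are from GENCODE M21, which held 97.9% of the identifiers and all 8 members.

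Counts were tested in edgeR 4.0.16 (R 4.3.3; filterByExpr, TMM, quasi-likelihood F-test on group, Benjamini-Hochberg over all genes tested, threshold 0.05), checked on simulated data. The changes planted in the simulated data were all larger than the fitted differences of the members. That check therefore does not cover differences of their size. DESeq2 1.42.0 and limma 3.58.1 were alternatives. SE comes from the F statistic. Correlations used log2 CPM with a prior count of 2 and 100000 resamples, or all pairings within groups. A count of 0 allows up to 3 counts, 0.0131 to 0.0868 CPM by library, for counting error only. No 2 libraries of a group agreed within sampling noise (lowest chi-square per degree of freedom 8.93 over 56 pairs). The sources do not state beyond the numbers of mice that each library is its own animal, so p-values cover only library-to-library spread, which may be technical. Members and lists were chosen with earlier results of these data known. Named genes are the members, the 3 genes of each list with the smallest p, and the 2 genes most correlated with each member (Gm and Rik names passed over). No genes of the marker sets are named, except those of smooth muscle and pericyte, which were named after their values were seen. So were Proser3, Hspa1a, Hspa1b, Cryaa, Hspb9 and Odf1.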

Additional observations from a re-analysis of the deposited data

Results flagged for a closer look

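No value of a member was flagged as far from its group. Hspb7 in multiparous 3 fell just short of the rule, at 2030.0 CPM, next to 1757 CPM in multiparous 4. Among 32 groups checked (8 members and 8 marker sums in each group of 8), 3 had a library far from the rest, and chance flags about 1 in 20. The macrophage marker sum of virgin 1 was 254 CPM, next to 180.4 CPM. The adipocyte marker sum was 5.37 CPM in multiparous 6, next to 2.21 CPM, and 7.32 CPM in virgin 6, next to 0.712 CPM.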

How the results depend on the processing

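No member was called in any of 28 alternatives for multiparous against virgin, or in any of 17 for MP-coded against P-coded. The lowest adjusted p of any member was 0.0665, for Hspb7 with DESeq2. Hspb1, Hspb3, Hspb6, Hspb7, Hspb8 and Bag3 stayed lower in multiparous hearts in all 28. Hspb2 turned to −0.0083 with P-coded libraries only and to −0.026 with the 4 kidney-rich virgin libraries left out (an alternative chosen after seeing the data), and ranged from −0.0068 to 0.040 with 1 library left out. Cryab turned to 0.0020 with MP-coded libraries only. Between codes, with 1 library left out, Hspb6 ranged from −0.030 to 0.14 and Hspb8 from −0.070 to 0.022. Over all genes, multiparous against virgin called 0 without factors, with robust dispersion, with MP-coded libraries only and without the kidney-rich libraries, 33 with the replicate block, 56 without a filter, 97 with P-coded libraries only, 130 with DESeq2, and 0 to 55 with 1 library left out. MP-coded against P-coded called 7 without factors, 389 without a filter, 11 at a mean of at least 1 CPM, 295 with DESeq2, 13 with limma voom, 2 with all 16 libraries in 1 fit, and 3 to 197 with 1 library left out. The cause was not tested. Replicate numbers paired no samples (correlations −0.11 to 0.29, 1 of 8 over 0.1, and 1 of 8 best with its own number), and the replicate block left 0 members called. No scaling moved the median of all genes by over 0.1. Depth limits Hspb3 most: it had 124 to 893 counts per library, and the other members 740 or more.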
